A study of Mus musculus with 18 samples.

Results

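The genes described here are 10 transcription factors that direct the dendritic cell lineages: Irf8, Irf4, Batf3, Id2, Zeb2, Zbtb46, Nfil3, Klf4, Bcl6 and Tcf4. They were chosen by gene symbol in the array annotation, among the 19937 genes that have a probe set with 1 symbol. Each of the 10 is read by exactly 1 probe set, and all 10 lie among the 14003 genes that passed the filter on low values.

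Expression was measured on 18 arrays of RNA from sorted cells of the mouse colon lamina propria, the connective tissue under the epithelium. The mice were 8-week-old BALB/c animals, either left untreated or given 2% DSS (dextran sulfate sodium), an agent used to cause colitis. Cells were released with collagenase, gated as MHC+ and high for CD11c, and sorted by CD103 and CD11b into 3 subsets, CD103+CD11b-, then CD103+CD11b+, and lastly CD103-CD11b+, with 3 arrays for each subset and treatment. Groups whose labels carry no DSS are read here as untreated. The labels number 6 experiments, 1 to 3 untreated and 4 to 6 with DSS, and every experiment supplied 1 array of each subset. Treatment and experiment therefore cannot be told apart, and the number of mice behind an array is not given in the labels. The p-values measure the spread between these arrays, which may be technical.

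Conventional dendritic cells take up antigen in the tissue and carry it to T cells, and they form a pair of branches, cDC1 and cDC2. In the cDC1 branch IRF8 and BATF3 set and hold cell identity, with NFIL3, ID2 and BCL6 also needed, whereas IRF4, KLF4 and ZEB2 serve the cDC2 branch. ID2 blocks E proteins such as TCF4 (E2-2), the factor that directs plasmacytoid dendritic cells, and ZBTB46 marks conventional dendritic cells as against monocytes and macrophages. In the gut, CD103+CD11b- cells are usually placed in the cDC1 branch and CD103+CD11b+ cells in the cDC2 branch, and a CD103-CD11b+ gate can also hold cells of monocyte descent.

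The subset labels were checked against the genes of the sort markers. Itgae (CD103) averaged 9.37 in untreated CD103+CD11b-, 8.84 in CD103+CD11b+ and 6.35 in CD103-CD11b+ cells on the log2 scale, and Itgam (CD11b) averaged 5.14, 7.31 and 7.93 in the same order. With DSS, Itgae averaged 7.44 in CD103-CD11b+ cells, 1.08 above the untreated group, a call that was lost in a fit on these 2 groups alone (adjusted p = 0.0951). Of the 20 tested genes of a cDC1 list, 19 were higher in untreated CD103+CD11b- cells than in CD103-CD11b+ cells and none was lower. Of the 20 genes of a macrophage list, 14 were lower in that comparison and 1 was higher. The summed level of the macrophage list, as a log2 value, ran from 12.77 to 12.87 in untreated CD103+CD11b-, from 13.07 to 13.15 in CD103+CD11b+ and from 13.78 to 14.29 in CD103-CD11b+ cells. Within the last group replicate 2 stood apart at 14.29, against 13.79 and 13.78, and results that rest on this array are given with and without it. Array medians lay between 3.99 and 4.09, and arrays of 1 group correlated at 0.965 to 0.982.

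Promoter sequences are shown for Irf8 and Bcl6, whose CD103+CD11b- arrays lay above all others, for Batf3 and Zbtb46, whose levels set apart other subsets, and for Zeb2, the member with the largest difference. Each runs from 250 bases before to 50 bases after the 5′-most annotated start (RefSeq, GRCm38.p6), 5′ to 3′ on the strand of the gene. The windows are chr8:120736108-120736407 (plus strand) for Irf8, chr16:23988803-23989102 (minus) for Bcl6, chr1:191098164-191098463 (plus) for Batf3, chr2:181424339-181424638 (minus) for Zbtb46 and chr2:45117393-45117692 (minus) for Zeb2. Capitals mark matches to the motifs searched.
Irf8: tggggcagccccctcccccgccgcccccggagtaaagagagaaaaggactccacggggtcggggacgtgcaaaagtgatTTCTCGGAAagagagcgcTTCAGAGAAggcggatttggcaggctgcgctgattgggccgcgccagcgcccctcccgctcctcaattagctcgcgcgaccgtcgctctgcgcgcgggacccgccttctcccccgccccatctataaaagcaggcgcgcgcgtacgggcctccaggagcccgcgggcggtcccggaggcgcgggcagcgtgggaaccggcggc
Bcl6: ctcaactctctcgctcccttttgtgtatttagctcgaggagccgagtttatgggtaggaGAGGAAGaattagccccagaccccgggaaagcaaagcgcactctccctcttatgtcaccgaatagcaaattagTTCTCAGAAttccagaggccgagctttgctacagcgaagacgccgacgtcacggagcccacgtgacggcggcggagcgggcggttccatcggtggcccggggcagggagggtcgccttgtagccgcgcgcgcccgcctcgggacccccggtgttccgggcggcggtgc
Batf3: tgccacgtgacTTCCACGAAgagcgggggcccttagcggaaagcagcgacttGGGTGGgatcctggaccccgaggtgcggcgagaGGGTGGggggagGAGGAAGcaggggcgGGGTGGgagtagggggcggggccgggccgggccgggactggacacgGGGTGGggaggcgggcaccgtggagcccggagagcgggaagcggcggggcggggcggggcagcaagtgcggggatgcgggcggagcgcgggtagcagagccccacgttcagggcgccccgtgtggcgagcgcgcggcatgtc
Zbtb46: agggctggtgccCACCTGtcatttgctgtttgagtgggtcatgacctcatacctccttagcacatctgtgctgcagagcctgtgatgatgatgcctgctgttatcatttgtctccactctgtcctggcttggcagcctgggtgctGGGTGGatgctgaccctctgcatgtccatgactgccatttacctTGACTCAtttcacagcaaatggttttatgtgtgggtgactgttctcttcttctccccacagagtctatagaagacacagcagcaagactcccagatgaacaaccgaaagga
Zeb2: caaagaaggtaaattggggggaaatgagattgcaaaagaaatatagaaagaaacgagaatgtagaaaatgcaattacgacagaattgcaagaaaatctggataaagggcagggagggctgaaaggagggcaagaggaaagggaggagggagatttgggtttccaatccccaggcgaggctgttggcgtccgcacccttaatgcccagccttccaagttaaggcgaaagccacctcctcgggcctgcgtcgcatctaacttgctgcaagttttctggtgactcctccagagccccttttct

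Of the 10 members, 9 had a promoter among those searched, and 8 motifs were searched on both strands of these. The search left out the promoters of a single chromosome, which are therefore absent from the background shares as well. The palindrome TTCNNNGAA, a form that STAT proteins and BCL6 itself can bind, lay in the promoters of Irf8, with 2 copies at -171 and -153 from the start, Bcl6 (at -118) and Batf3 (at -239), which makes 3 of 9 members against 8.3% of 32851 mouse promoters of the same length. The KLF motif CCACCC lay in 3 of the 9 (Batf3 with 4 copies, Id2 and Zbtb46), against 31.5% of all promoters, and the PU.1 core GAGGAAG in Batf3 and Bcl6, against 13.6%. Zbtb46 held the E2-box CACCTG at -238, a ZEB and E protein motif found in 20.2% of promoters, and the AP-1 motif TGANTCA at -61, found in 7.81%. The interferon-stimulated response element core (3.44% of promoters), the ETS-IRF composite element (2.72%) and the NFIL3 motif TTANGTAA (2.32%) had no match in the 9 windows. Irf4, Zeb2, Nfil3 and Klf4 held none of the 8 motifs. A match is a description of the letters in these windows only.

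Most members differed between subsets, and none was called for a change with DSS. A difference was called when limma's test, with Benjamini-Hochberg adjustment over all 14003 genes, gave an adjusted p below 0.05. Of 60 subset differences (10 members in 6 comparisons) 27 were called, which involved 8 members; Nfil3 and Klf4 were called in none. In untreated mice, 7 of 10 members were called between CD103+CD11b- and CD103-CD11b+ cells (10.3% of all genes), with 4 higher in the former (5.01% of all genes) and 3 lower (5.32%). Between the CD103+ subsets 5 were called (6.86%), with 1 higher in CD103+CD11b- cells (2.76%) and 4 lower (4.09%). Between the CD11b+ subsets 4 were called (4.11%), with 3 higher in CD103+CD11b+ cells (2.36%) and 1 lower (1.75%). The untreated groups did not overlap for 7, 6 and 5 members in these comparisons, against 22.6%, 22% and 17.4% of all genes.

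With DSS, 6 members were called in the first of these comparisons (8.53% of all genes), 3 higher (4.19%) and 3 lower (4.34%). In the second 4 were called (5.96%), 1 higher (3.56%) and 3 lower (2.39%). In the third 1 was called (1.58%), and it was lower (1.14%, against 0.436% called higher). The DSS groups did not overlap for 8, 6 and 6 members, against 24.6%, 22.8% and 16.5% of all genes. The median absolute difference of the members between CD103+CD11b- and CD103-CD11b+ cells of untreated mice was 0.72, against 0.16 over all genes. These are bulk samples, in which fewer cells of a type and less RNA per cell cannot be told apart.

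**Figure D1:**
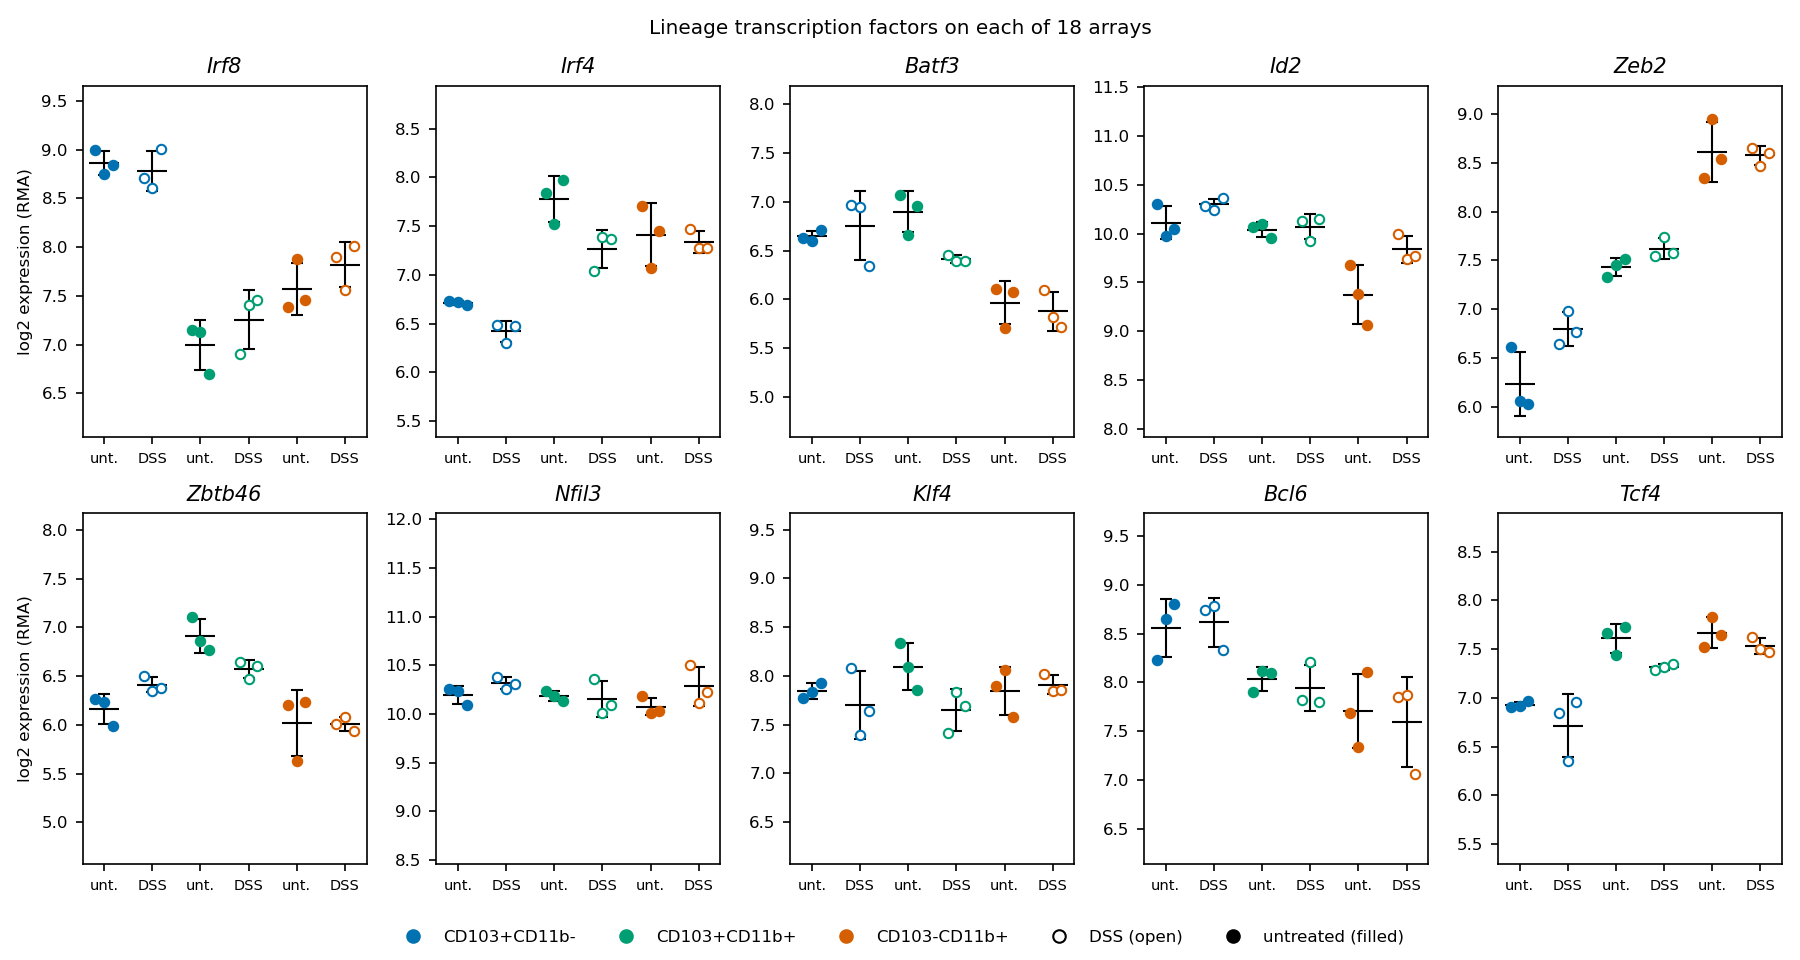
Each panel plots 1 member, with its log2 expression (RMA) on the vertical axis and the 6 groups on the horizontal axis; points are arrays (filled untreated, open DSS), and bars give the mean and SD of 3 arrays. All panels span the same number of log2 units but start at different levels; Zeb2 climbs from group means of 6.23 to 8.61, while the group means of Nfil3 span 0.24.

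Zeb2, a zinc finger repressor that binds E-boxes and favours the cDC2, monocyte and plasmacytoid fates, showed a stepped pattern (probe set 10482448). Its log2 levels in untreated replicates 1 to 3 were 6.61, 6.06 and 6.02 in CD103+CD11b-, 7.33, 7.45 and 7.51 in CD103+CD11b+, and 8.35, 8.95 and 8.54 in CD103-CD11b+ cells. In DSS replicates 4 to 6 they were 6.64, 6.98 and 6.77, then 7.54, 7.74 and 7.57, then 8.66, 8.47 and 8.60 in the same order of subsets. No subset overlapped with another under either treatment. The 3 steps were all called in untreated mice: CD103+CD11b- cells were below CD103-CD11b+ cells by a log2 difference of -2.38 ± 0.17 (SE, n = 3 and 3; adjusted p = 1.11e-08), 5.21-fold, and below CD103+CD11b+ cells by -1.20 ± 0.17 (adjusted p = 7.33e-05), 2.30-fold. CD103+CD11b+ cells were below CD103-CD11b+ cells by -1.18 ± 0.17 (adjusted p = 0.00043), 2.27-fold. With DSS the same 3 differences were -1.78 ± 0.17 (adjusted p = 5.71e-07), -0.82 ± 0.17 (adjusted p = 0.00376) and -0.96 ± 0.17 (adjusted p = 0.00446). Within each of the 6 experiments Zeb2 was lowest in CD103+CD11b- and highest in CD103-CD11b+ cells, and the gap between these ran from -2.89 to -1.49.

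The CD103-CD11b+ arrays, with the highest Zeb2, also had the highest sums of the macrophage list and of a monocyte list. In untreated mice the monocyte sums were 12.63 to 13.28, against 11.82 to 11.95 in CD103+CD11b- and 12.13 to 12.39 in CD103+CD11b+ cells. With DSS the macrophage sums were 13.75 to 13.95 in CD103-CD11b+ cells. They overlapped between CD103+CD11b- (12.97 to 13.10) and CD103+CD11b+ cells (13.004 to 13.11), where Zeb2 did not overlap. All 20 macrophage genes were above the filter level in the untreated CD103-CD11b+ group, and 1 of them, Cd163, was below it in both untreated CD103+ groups. The array with the highest monocyte sum, replicate 1 of untreated CD103-CD11b+ cells (13.28), had the lowest Zeb2 of its group (8.35). The array with the highest macrophage sum, replicate 2 of the same group, had the highest Zeb2 of all 18 arrays (8.95). Without it the untreated Zeb2 differences were -2.21 (adjusted p = 8.45e-08) against CD103+CD11b- cells and -1.01 (adjusted p = 0.00378) against CD103+CD11b+ cells, and both stayed called. The part of macrophage or monocyte RNA in the Zeb2 result was not tested.

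Irf8, the interferon regulatory factor on which cDC1 development depends, had its highest levels in CD103+CD11b- cells (probe set 10576034). Its untreated levels in replicates 1 to 3 were 8.99, 8.75 and 8.84 in CD103+CD11b-, 7.15, 7.13 and 6.70 in CD103+CD11b+, and 7.38, 7.88 and 7.46 in CD103-CD11b+ cells. The DSS levels in replicates 4 to 6 were 8.71, 8.61 and 9.01, then 6.90, 7.40 and 7.46, then 7.89, 7.56 and 8.01. All 6 CD103+CD11b- arrays lay above all 12 others. CD103+CD11b- cells exceeded CD103+CD11b+ cells by 1.87 ± 0.18 untreated (3.65-fold, adjusted p = 1.13e-06) and 1.52 ± 0.18 with DSS (2.87-fold, adjusted p = 1.87e-05). They exceeded CD103-CD11b+ cells by 1.29 ± 0.18 untreated (2.44-fold, adjusted p = 6.22e-05) and 0.96 ± 0.18 with DSS (1.94-fold, adjusted p = 0.00161).

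The lowest Irf8 was found in CD103+CD11b+ cells, not in CD103-CD11b+ cells. The CD103+CD11b+ arrays lay below the CD103-CD11b+ arrays without overlap under each treatment, and in 6 of 6 experiments, by -0.58 ± 0.18 untreated and -0.57 ± 0.18 with DSS. Neither difference passed the threshold (adjusted p = 0.0908 and 0.181, with 95% intervals of -0.96 to -0.19 and -0.95 to -0.18). The untreated one passed after a further quantile normalization (-0.65, adjusted p = 0.0382). Without replicate 2 of untreated CD103-CD11b+ cells, the array with the highest macrophage sum, it was smaller (-0.43, adjusted p = 0.311).

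Bcl6, a repressor that cDC1 cells need, shared the high level in CD103+CD11b- cells (probe set 10438738). Its untreated levels were 8.23, 8.65 and 8.80 in CD103+CD11b-, 7.90, 8.12 and 8.10 in CD103+CD11b+, and 7.69, 7.34 and 8.10 in CD103-CD11b+ cells. With DSS they were 8.74, 8.78 and 8.33, then 7.82, 8.21 and 7.80, then 7.85, 7.87 and 7.06. The CD103+CD11b- arrays lay above every other array. Against CD103-CD11b+ cells the difference was 0.85 ± 0.23 untreated (1.81-fold, adjusted p = 0.0178) and 1.02 ± 0.23 with DSS (2.03-fold, adjusted p = 0.00522). The untreated call was lost without replicate 1 or 2 of CD103-CD11b+ cells, with differences of 0.84 and 0.67 (adjusted p = 0.0503 and 0.105), and without replicate 2 or 3 of CD103+CD11b- cells, with 0.81 and 0.73 (adjusted p = 0.0664 and 0.0908). Against CD103+CD11b+ cells Bcl6 was not called, at 0.52 ± 0.23 untreated (adjusted p = 0.207) and 0.68 ± 0.23 with DSS (adjusted p = 0.0961); with experiment as a fixed block the second had adjusted p = 0.0230.

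Irf4, which cDC2 cells of the gut need, ran the other way (probe set 10404389). Its untreated levels were 6.73, 6.72 and 6.69 in CD103+CD11b-, 7.84, 7.52 and 7.97 in CD103+CD11b+, and 7.71, 7.07 and 7.45 in CD103-CD11b+ cells. With DSS they were 6.49, 6.30 and 6.47, then 7.04, 7.39 and 7.37, then 7.47, 7.27 and 7.27. All 12 CD11b+ arrays lay above all 6 CD11b- arrays. CD103+CD11b- cells were lower than CD103+CD11b+ cells by -1.07 ± 0.16 untreated (2.09-fold, adjusted p = 0.000143) and -0.84 ± 0.16 with DSS (1.79-fold, adjusted p = 0.00177). They were lower than CD103-CD11b+ cells by -0.70 ± 0.16 (adjusted p = 0.00616) and -0.92 ± 0.16 (adjusted p = 0.000597). The CD11b+ subsets were not told apart, with a difference of 0.37 ± 0.16 untreated (interval 0.04 to 0.70, adjusted p = 0.249) and -0.07 ± 0.16 with DSS. The summed level of a list of T, NK and innate lymphoid markers was also lowest in CD103+CD11b- cells under both treatments. The part of such cells in the Irf4 result was not tested.

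Tcf4, the E protein E2-2 that directs plasmacytoid dendritic cells, was also lowest in CD103+CD11b- cells (probe set 10456522). Its untreated levels were 6.90, 6.92 and 6.97 in CD103+CD11b-, 7.67, 7.44 and 7.73 in CD103+CD11b+, and 7.52, 7.83 and 7.65 in CD103-CD11b+ cells. With DSS they were 6.84, 6.35 and 6.96, then 7.28, 7.32 and 7.35, then 7.62, 7.51 and 7.47. No CD103+CD11b- array reached the lowest CD11b+ array. The difference from CD103-CD11b+ cells was -0.74 ± 0.14 untreated (1.67-fold, adjusted p = 0.00163) and -0.81 ± 0.14 with DSS (1.76-fold, adjusted p = 0.000759). From CD103+CD11b+ cells it was -0.68 ± 0.14 untreated (adjusted p = 0.00461) and -0.60 ± 0.14 with DSS (adjusted p = 0.0142), and the last call was lost without DSS replicate 5 of CD103+CD11b- cells (-0.42, adjusted p = 0.0976), without DSS replicate 6 of CD103+CD11b+ cells (adjusted p = 0.0561) or in a fit on these 2 groups alone (adjusted p = 0.0623).

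Markers of plasmacytoid dendritic cells were counted beside Tcf4. Of 12 tested genes of that list, 6 were lower and none was higher in untreated CD103+CD11b- cells than in CD103-CD11b+ cells, among them Cd209d (-2.16), Lair1 (-1.62) and Siglech (-1.58). The summed log2 level of the list was 9.39 to 9.61 in untreated CD103+CD11b-, 9.86 to 9.98 in CD103+CD11b+ and 10.05 to 10.62 in CD103-CD11b+ cells. Cd209d and Tlr7 were below the filter level in the first of these groups. With DSS the sums were 9.97 to 10.003 in CD103-CD11b+ cells. They overlapped between CD103+CD11b- (9.45 to 9.56) and CD103+CD11b+ cells (9.48 to 9.78), where Tcf4 did not overlap. The part of plasmacytoid cells in the Tcf4 result was not tested.

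**Figure D2:**
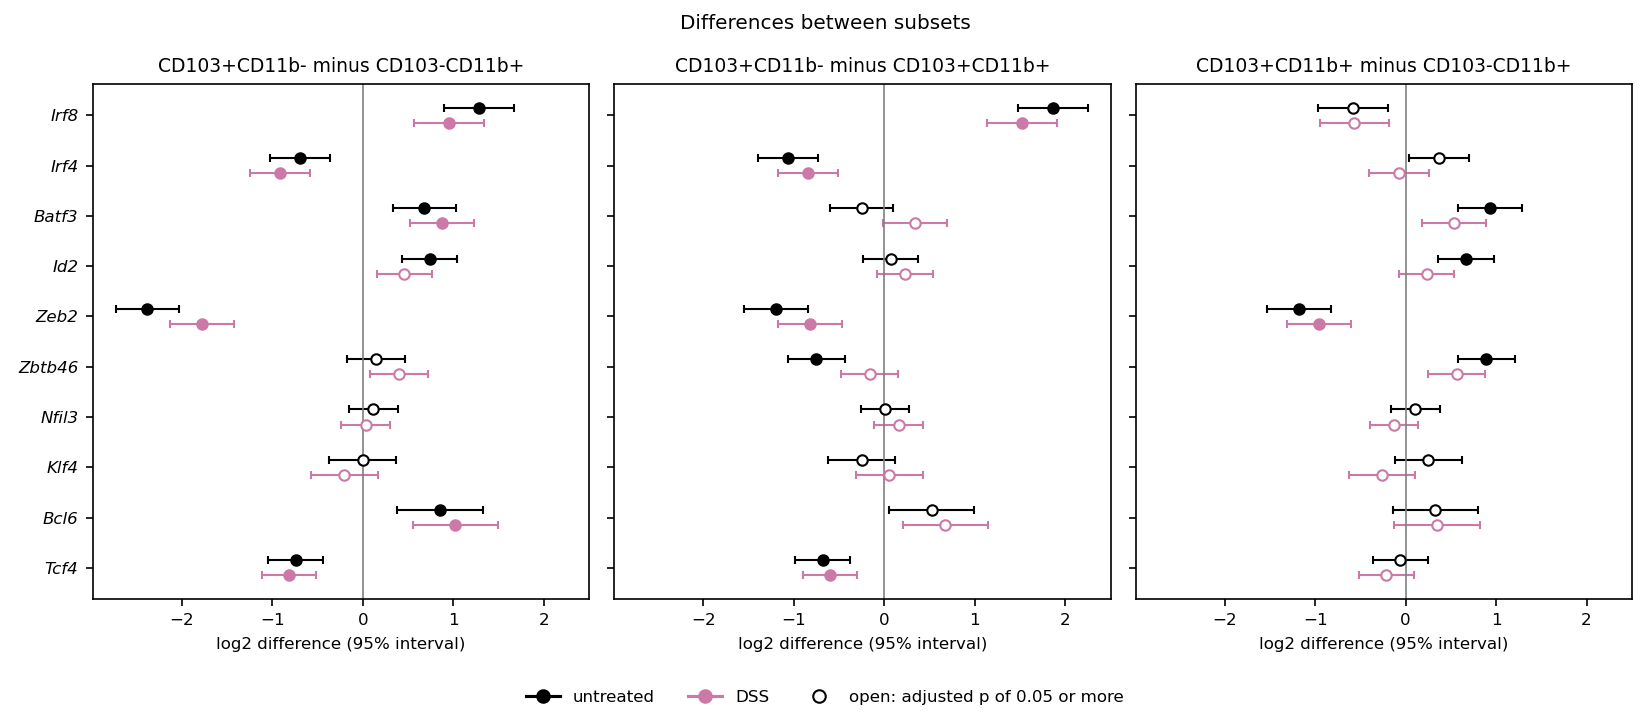
Differences between subsets for the 10 members on the log2 scale (horizontal axis), with 95% intervals from the limma fit; black is untreated and pink is DSS, and filled points have an adjusted p below 0.05. Irf8 and Zeb2 reach furthest from 0 in opposite directions (1.87 and -2.38), and all 12 differences of Nfil3 and Klf4 are open points between -0.26 and 0.25.

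Batf3, the partner of IRF8 in cDC1 cells, separated by CD103 rather than by CD11b (probe set 10352717). Its untreated levels were 6.63, 6.60 and 6.71 in CD103+CD11b-, 7.07, 6.66 and 6.96 in CD103+CD11b+, and 6.11, 5.71 and 6.08 in CD103-CD11b+ cells. With DSS they were 6.96, 6.95 and 6.34, then 6.46, 6.39 and 6.39, then 6.10, 5.82 and 5.71. All 12 CD103+ arrays lay above all 6 CD103- arrays. CD103+CD11b- cells exceeded CD103-CD11b+ cells by 0.68 ± 0.17 untreated (1.60-fold, adjusted p = 0.0112) and 0.88 ± 0.17 with DSS (1.84-fold, adjusted p = 0.00156). The untreated call was lost without replicate 2 of CD103-CD11b+ cells, the array with the highest macrophage sum (0.55, adjusted p = 0.068). CD103+CD11b+ cells exceeded CD103-CD11b+ cells by 0.93 ± 0.17 untreated (1.91-fold, adjusted p = 0.0028; 0.80 and adjusted p = 0.0227 without that array), and with DSS by 0.54 ± 0.17, which was not called (adjusted p = 0.154). Between the CD103+ subsets the difference was -0.25 ± 0.17 untreated (interval -0.60 to 0.10) and 0.34 ± 0.17 with DSS, and neither was called (adjusted p = 0.472 and 0.352).

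Id2, the inhibitor of E proteins that conventional dendritic cells express, also followed CD103 (probe set 10399691). Its untreated levels were 10.30, 9.98 and 10.05 in CD103+CD11b-, 10.07, 10.10 and 9.96 in CD103+CD11b+, and 9.67, 9.38 and 9.07 in CD103-CD11b+ cells. With DSS they were 10.29, 10.25 and 10.36, then 10.13, 9.92 and 10.15, then 10.0015, 9.74 and 9.77. The untreated CD103- arrays lay below both CD103+ groups, while with DSS they overlapped with CD103+CD11b+ cells. In untreated mice CD103+CD11b- cells exceeded CD103-CD11b+ cells by 0.74 ± 0.15 (1.67-fold, adjusted p = 0.00183), and CD103+CD11b+ cells did so by 0.67 ± 0.15 (1.59-fold, adjusted p = 0.0126). The second call was lost without replicate 2 of CD103+CD11b+ cells (adjusted p = 0.0512), without replicate 3 of CD103-CD11b+ cells (adjusted p = 0.0613) or in a fit on the 2 groups alone (adjusted p = 0.137). With DSS the difference of CD103+CD11b- from CD103-CD11b+ cells was 0.46 ± 0.15 without overlap, at adjusted p = 0.0589, and at 0.0359 with experiment as a fixed block and 0.0442 with it as a random block. That of CD103+CD11b+ cells was 0.23 ± 0.15 and was not called.

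Zbtb46, the zinc finger factor of the conventional dendritic cell lineage, had its highest levels in CD103+CD11b+ cells (probe set 10490682). Its untreated levels were 6.26, 6.24 and 5.99 in CD103+CD11b-, 7.11, 6.86 and 6.77 in CD103+CD11b+, and 6.20, 5.63 and 6.23 in CD103-CD11b+ cells. With DSS they were 6.50, 6.35 and 6.38, then 6.65, 6.47 and 6.60, then 6.003, 6.08 and 5.94. The untreated CD103+CD11b+ arrays lay above all 15 others. They exceeded CD103+CD11b- cells, where the difference was -0.75 ± 0.15 (1.68-fold, adjusted p = 0.00305), and CD103-CD11b+ cells by 0.89 ± 0.15 (1.86-fold, adjusted p = 0.00174). In a fit on these last 2 groups alone the adjusted p was 0.0664, and without replicate 2 of CD103-CD11b+ cells the difference was 0.70 (adjusted p = 0.0109). With DSS Zbtb46 was again highest in CD103+CD11b+ cells within each experiment, but neither difference was called, at -0.16 ± 0.15 (interval -0.48 to 0.16, adjusted p = 0.753) and 0.56 ± 0.15 (interval 0.25 to 0.88, adjusted p = 0.0741). CD103+CD11b- and CD103-CD11b+ cells differed by 0.14 ± 0.15 untreated and 0.40 ± 0.15 with DSS, and neither was called (adjusted p = 0.714 and 0.128).

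Nfil3 and Klf4 were called between no subsets. Nfil3, a basic leucine zipper repressor that acts early in cDC1 commitment, lay between 10.01 and 10.50 on all 18 arrays (probe set 10409278), and the span of its 6 group means, 0.24, was larger than that of 17.4% of the tested genes. The 6 subset differences of Nfil3 ran from -0.13 to 0.16, each with an SE of 0.13. Klf4, a factor of a part of the cDC2 branch and of monocytes, lay between 7.40 and 8.34 (probe set 10513008). Its subset differences ran from -0.26 to 0.25 with an SE of 0.18, and the widest intervals allow differences of -0.63 to 0.62. By the same measure the spans of the other 8 members were larger than those of 91.3% (Zbtb46) to 99.4% (Zeb2) of the tested genes.

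**Figure D3:**
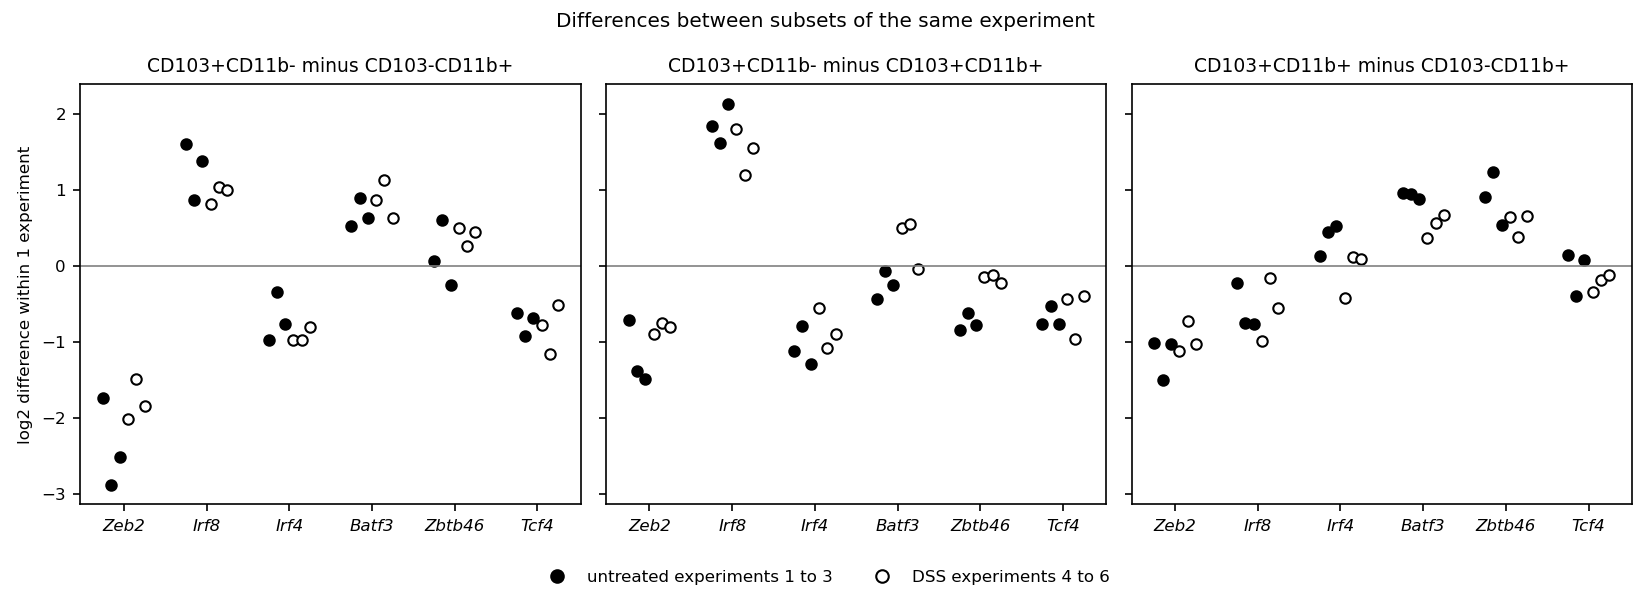
Differences between subsets taken within each experiment, on the log2 scale (vertical axis), for 6 members; filled points are the 3 untreated and open points the 3 DSS experiments. Zeb2 lies below 0 in all 18 values, Irf8 lies above 0 in both comparisons with CD103+CD11b- cells, and Batf3 between the CD103+ subsets lies on both sides of 0.

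The experiments gave a further reading of the same differences, since every experiment held 1 array of each subset. Irf8 and Bcl6 were higher, and Irf4, Tcf4 and Zeb2 lower, in CD103+CD11b- cells than in each CD11b+ subset in 6 of 6 experiments. Batf3 and Id2 were higher in both CD103+ subsets than in CD103-CD11b+ cells in 6 of 6, and Zbtb46 was higher in CD103+CD11b+ cells than in each other subset in 6 of 6. Between the CD103+ subsets Batf3 was higher in CD103+CD11b- cells in 2 experiments, both with DSS, and lower in 4. The gap of Zbtb46 between these subsets was -0.84, -0.63 and -0.78 in the untreated and -0.15, -0.12 and -0.22 in the DSS experiments.

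No member was called for a change with DSS in any subset. The background was low too: 0.129% of all genes were called in CD103+CD11b-, 0.0857% in CD103+CD11b+ and 0.1% in CD103-CD11b+ cells, and 0.186% for the mean of the 3 subsets. By direction these were 0.107% higher and 0.0214% lower with DSS, then 0.05% and 0.0357%, then 0.0714% and 0.0286%, and 0.15% and 0.0357% for the mean. At an unadjusted p below 0.05, 1, 4, 1 and 3 of the 10 members passed limma's test in these comparisons, against 6.08%, 10.1%, 7.67% and 10.5% of all genes. With 3 arrays a group, the 95% intervals of the members reached 0.269 to 0.472 to each side of the change within a subset, and 0.188 to 0.338 for the mean of the subsets.

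The member with the largest change was Zeb2 in CD103+CD11b- cells, from 6.61, 6.06 and 6.02 untreated to 6.64, 6.98 and 6.77 with DSS. All 3 DSS arrays lay above the untreated ones, and the change was 0.57 ± 0.17 (1.48-fold, interval 0.21 to 0.92, adjusted p = 0.46). The sums of several marker lists moved with it. The summed log2 level of the macrophage list was 12.97 to 13.10 with DSS and 12.77 to 12.87 without in these cells, and none of its 20 genes was called. The monocyte list was at 12.08 to 12.15 with DSS and 11.82 to 11.95 without, the cDC2 list at 11.16 to 11.26 and 11.0001 to 11.15, and the neutrophil list at 8.59 to 9.76 and 7.69 to 8.41, all without overlap. The list common to conventional dendritic cells was also higher without overlap, at 13.62 to 13.69 with DSS and 13.53 to 13.61 without. Of the cDC2 list 1 gene was called, Sirpa, a receptor of myeloid cells (0.83 ± 0.14, adjusted p = 0.0215), and of the neutrophil list Retnlg (1.33 ± 0.25, adjusted p = 0.0413). Both calls were lost without single arrays: that of Retnlg without any 1 of the 6, and that of Sirpa without any but untreated replicate 2 (adjusted p up to 0.271 and 0.161 over all alternatives). Itgam, the gene of the sort marker CD11b, differed by 0.99 ± 0.20 (adjusted p = 0.084). The part of other cell types in the Zeb2 change was not tested. Zeb2 changed by 0.19 ± 0.17 in CD103+CD11b+ and by -0.04 ± 0.17 in CD103-CD11b+ cells.

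In CD103+CD11b+ cells 4 members had an unadjusted p below 0.05, all with lower means with DSS, and none was called. Irf4 went from 7.84, 7.52 and 7.97 to 7.04, 7.39 and 7.37, a change of -0.52 ± 0.16 (interval -0.85 to -0.18, adjusted p = 0.275). Batf3 changed by -0.48 ± 0.17 (adjusted p = 0.333), Klf4 by -0.45 ± 0.18 (adjusted p = 0.395) and Zbtb46 by -0.34 ± 0.15 (adjusted p = 0.452). Marker sums also differed in this subset without overlap: with DSS and without, the B and plasma cell list was at 10.74 to 10.83 and 11.04 to 11.13, the plasmacytoid list at 9.48 to 9.78 and 9.86 to 9.98, and the epithelium list at 12.43 to 12.49 and 12.51 to 13.02. The cDC2 list was at 11.98 to 12.08 and 12.19 to 12.26, and the neutrophil list was higher, at 9.35 to 10.18 and 8.77 to 9.01. Of these lists only Retnlg was called (1.44 ± 0.25, adjusted p = 0.0282), and not without untreated replicate 1 or 3 or DSS replicate 5 or 6 (adjusted p up to 0.181 over all alternatives). Their part in the member changes was not tested. The groups did not overlap for 6 members in this subset (15.5% of all genes), for 3 in CD103+CD11b- cells (12.3%) and for 1 in CD103-CD11b+ cells (11.5%). That 1 was Id2, which went from 9.67, 9.38 and 9.07 to 10.0015, 9.74 and 9.77 (0.47 ± 0.15, interval 0.16 to 0.77, adjusted p = 0.363). In the same cells Itgae was higher with DSS (1.08 ± 0.13), a call that a fit on the 2 groups alone lost. The neutrophil sums were 9.51 to 10.33 with DSS and 8.59 to 9.38 without. The plasmacytoid sums were 9.97 to 10.003 and 10.05 to 10.62. A shift in cell content behind the Id2 change was not tested.

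**Figure D4:**
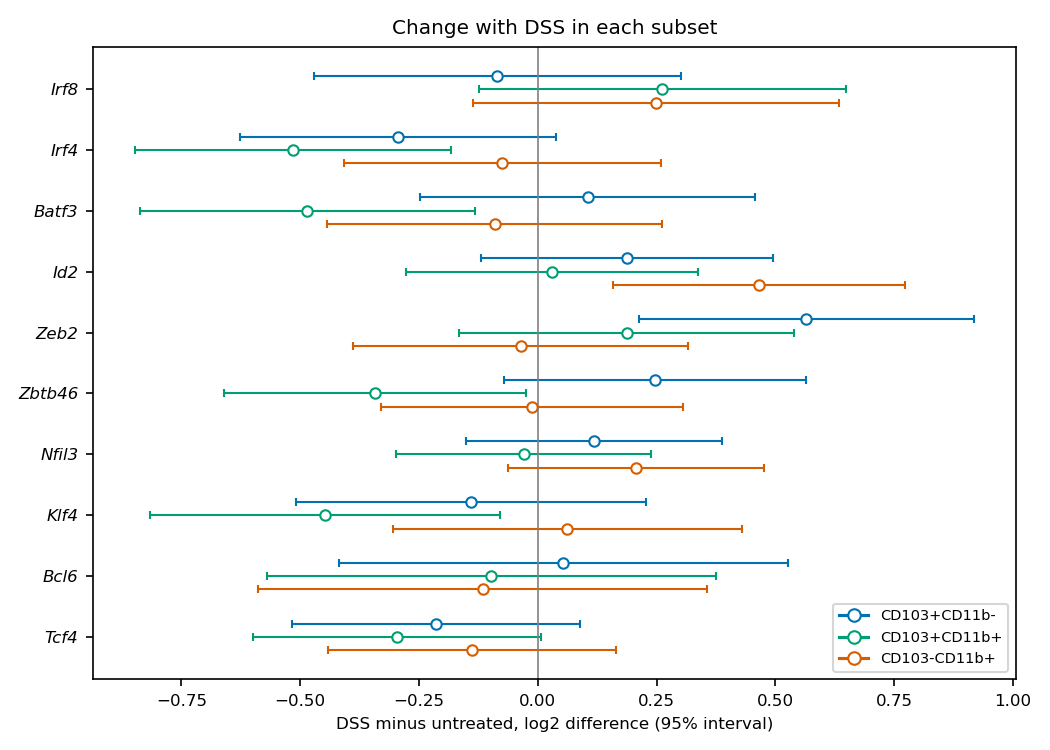
Change with DSS (DSS minus untreated, log2, horizontal axis) for each member in the 3 subsets, with 95% intervals from the limma fit; all points are open because none had an adjusted p below 0.05. The points lie between -0.52 (Irf4 in CD103+CD11b+ cells) and 0.57 (Zeb2 in CD103+CD11b- cells).

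Over the means of the 3 subsets in each experiment, Irf4 was 7.43, 7.10 and 7.37 untreated and 6.998, 6.99 and 7.04 with DSS, a change of -0.29 ± 0.10 (adjusted p = 0.362). Zeb2 was 7.43, 7.49 and 7.36 untreated and 7.61, 7.73 and 7.65 with DSS, a change of 0.24 ± 0.08 (adjusted p = 0.373). Tcf4 changed by -0.22 ± 0.09 (adjusted p = 0.437). The experiments of each treatment did not overlap for these 3 members, as for 15.9% of all genes, and none was called. Among the markers of other cells, Retnlg of the neutrophil list was higher with DSS in this comparison (1.34 ± 0.18, adjusted p = 0.0276), a call lost without any 1 of experiments 1, 2, 3, 5 and 6 (adjusted p up to 0.129), and the summed log2 level of that list was 7.69 to 9.38 over the untreated and 8.59 to 10.33 over the DSS arrays. The part of neutrophil RNA in the member changes was not tested.

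Whether the DSS change differed between subsets was tested as an interaction, which called no member and 0% of all genes in each of 3 comparisons. At an unadjusted p below 0.05, limma's test passed 1 of 10 members for CD103+CD11b- against CD103-CD11b+ cells, 2 for CD103+CD11b- against CD103+CD11b+ cells and 1 for CD103+CD11b+ against CD103-CD11b+ cells, where 3.64%, 4.83% and 5.56% of all genes passed. The largest member interactions were Zeb2 in the first (0.60 ± 0.24, interval 0.10 to 1.10), and Batf3 (0.59 ± 0.24, interval 0.09 to 1.09) and Zbtb46 (0.59 ± 0.21, interval 0.14 to 1.04) in the second, with adjusted p-values of 1 for Zeb2 and 0.983 for the other 2. The intervals include differences of over 1 on the log2 scale, so these data do not show that the subsets changed alike.

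Other factors of the same families were read from 6 lists, of which 97 of 104 genes were tested. Shares of all genes called in the same direction are given in brackets. Between CD103+CD11b- and CD103-CD11b+ cells of untreated mice 11 were higher (5.01%) and 11 lower (5.32%), and with DSS 10 were higher (4.19%) and 7 lower (4.34%). Between CD103+CD11b- and CD103+CD11b+ cells 4 were higher (2.76%) and 10 lower (4.09%) untreated, and 8 were higher (3.56%) and 4 lower (2.39%) with DSS. Between CD103+CD11b+ and CD103-CD11b+ cells 12 were higher (2.36%) and 2 lower (1.75%) untreated, and 2 were lower with DSS (1.14%). None of the 97 was called by limma for a change with DSS or an interaction, while 6, 19 and 6 had an unadjusted p below 0.05 for the change in CD103+CD11b- cells, CD103+CD11b+ cells and CD103-CD11b+ cells. These are 6.19%, 19.6% and 6.19% of the 97, against 6.08%, 10.1% and 7.67% of all genes.

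Of 6 tested genes of the IRF list beside Irf8 and Irf4, only Irf5 was called. Irf5, which acts in inflammatory signalling, was higher in CD103+CD11b- cells than in CD103-CD11b+ cells by 0.71 ± 0.14 untreated and 0.67 ± 0.14 with DSS. Among 14 BATF and AP-1 genes, 1 was higher and 2 were lower in CD103+CD11b- cells against CD103-CD11b+ cells in untreated mice, and none was higher and 2 were lower against CD103+CD11b+ cells. Jdp2, a repressor of AP-1, was higher in CD103+CD11b- cells than in CD103-CD11b+ cells by 1.02 ± 0.16 untreated and 1.12 ± 0.16 with DSS, so that it shared the direction of Batf3. Atf3, a stress-induced factor, was higher in CD103+CD11b- cells with DSS, by 0.68 ± 0.14 against CD103-CD11b+ and 0.75 ± 0.14 against CD103+CD11b+ cells. The lower pair was Batf, which can stand in for BATF3, and the AP-1 subunit Fosl2. Batf differed by -0.68 ± 0.21 from CD103-CD11b+ and by -0.88 ± 0.21 from CD103+CD11b+ cells (adjusted p = 0.0461 and 0.0121), and Fosl2 by -0.43 ± 0.12 and -0.53 ± 0.12 (adjusted p = 0.0299 and 0.0102). With DSS Fosl2 was also lower against CD103-CD11b+ cells (-0.51 ± 0.12, adjusted p = 0.0112). Each of these 5 calls was lost without single arrays: that of Batf against CD103+CD11b+ cells without untreated replicate 1 of either subset, and that of Fosl2 without untreated replicate 3 of CD103+CD11b- cells (adjusted p up to 0.0767 and 0.0641). Against CD103-CD11b+ cells the untreated calls of both were lost without any of replicates 1, 2 and 3 of CD103+CD11b- or 1 and 3 of CD103-CD11b+ cells (adjusted p up to 0.169 for Batf and 0.18 for Fosl2 over all alternatives). With DSS the call of Fosl2 was lost without replicate 4 of CD103-CD11b+ or replicate 5 of CD103+CD11b- cells (adjusted p up to 0.0619). None of the other 5 E and Id proteins was called in any comparison (limma; at most 2 had an unadjusted p below 0.05 in a comparison), unlike Id2 and Tcf4.

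Among 12 BTB zinc finger genes beside Zbtb46 and Bcl6, Zbtb32 and Zbtb18, both repressors, were lower in CD103+CD11b- cells than in CD103+CD11b+ cells in untreated mice, by -1.34 ± 0.29 and -1.07 ± 0.16. With DSS the differences were -1.32 ± 0.29 and -0.69 ± 0.16, and both calls were lost without DSS replicate 5 of CD103+CD11b- cells (adjusted p = 0.0538 and 0.0705). Of 10 tested KLF genes Klf2, known from lymphocyte quiescence and migration, was called with DSS, and was higher in CD103+CD11b- cells than in CD103+CD11b+ cells by 0.80 ± 0.14 and than in CD103-CD11b+ cells by 0.65 ± 0.14. Among 50 other dendritic and myeloid factors, Hhex, a homeobox factor, shared the direction of Irf8: it was higher in untreated CD103+CD11b- cells by 1.82 ± 0.21 against CD103+CD11b+ and 1.61 ± 0.21 against CD103-CD11b+ cells. Tfec, a factor of the MITF family expressed in macrophages, ran with Zeb2, at -2.39 ± 0.27 for untreated CD103+CD11b- minus CD103-CD11b+ cells and -1.58 ± 0.27 for CD103+CD11b+ minus CD103-CD11b+ cells. Prdm1 (Blimp-1) was also lower in CD103+CD11b- cells than in CD103-CD11b+ cells (-1.48 ± 0.22 untreated, -1.25 ± 0.22 with DSS), and Mycl, a MYC family member of dendritic cells, was higher (0.90 ± 0.17 untreated). Stat5a and Stat5b, which carry the signal of GM-CSF, were lower in untreated CD103+CD11b- cells than in CD103+CD11b+ cells, by -1.08 ± 0.15 and -0.93 ± 0.12.

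The genes most like a member were found for the 5 members whose group means spanned over 1 log2 unit, as the 3 tested genes with the smallest root mean square difference over 6 centred group means. For Irf8 they were Lpar6 (0.0631), P2ry14 (0.139) and Ppt1 (0.145), of which Ppt1 was also on the cDC1 list. For Zeb2 they were Clec4a2 (0.0841), Ms4a6c (0.0943) and Tmem176a (0.0961), and Clec4a2 was on the cDC2 list. Those of Bcl6 were Dapp1 (0.0632), Rabgap1l (0.0648) and Rab27a (0.0776), those of Irf4 were Slc2a6 (0.0810), Flvcr1 (0.0965) and Hvcn1 (0.116), and those of Batf3 were Chac1 (0.0931), Dapk1 (0.0961) and Morn3 (0.0976). Lpar6, a receptor for lysophosphatidic acid, averaged 9.01, 7.28 and 7.75 in untreated CD103+CD11b- cells, CD103+CD11b+ cells and CD103-CD11b+ cells, and 9.11, 7.49 and 8.07 with DSS. Its lowest level was in CD103+CD11b+ cells, as for Irf8. Lpar6 was picked by its likeness to Irf8 over these same group means, so the shared order follows from that choice.

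**Figure D5:**
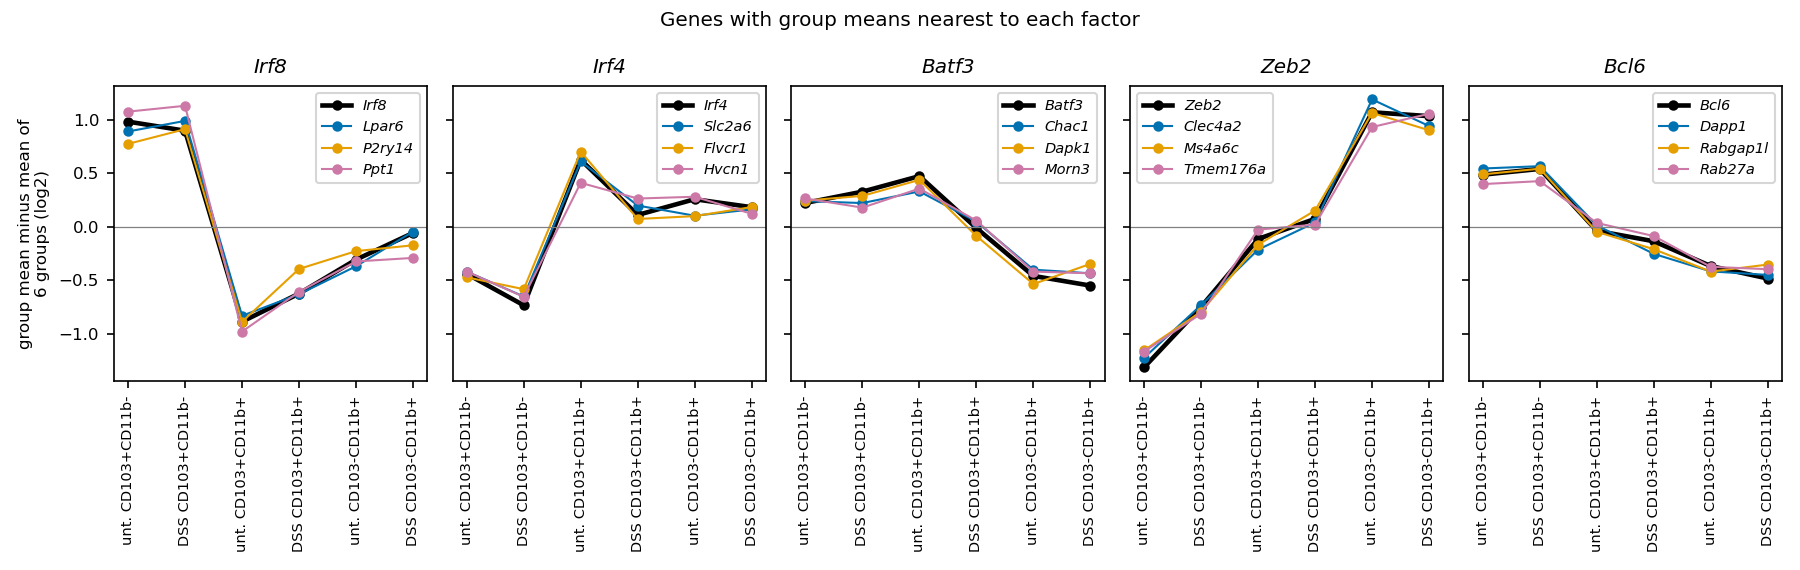
Group means minus the mean of the 6 groups (log2, vertical axis) for 5 members (black) and the 3 genes nearest to each (colours), with the groups on the horizontal axis. The gene nearest to Irf8, Lpar6, follows it with a root mean square difference of 0.0631, and Clec4a2 follows Zeb2 with 0.0841.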

How the data were processed

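Each of the 18 arrays measured total RNA of 1 sorted subset in 1 experiment, amplified from 5 ng of RNA, per the labels' protocols. The deposited values are log2 intensities that the authors made with RMA, per the submitters' processing notes; versions are not given in the sources used here. Values ran from 1.07 to 13.16. Probe sets with 1 symbol in the platform annotation (21640 of 34760) were kept, the brightest standing for a gene, and genes above the 40th percentile of all values (3.51) on at least 3 arrays were tested.

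limma 3.58.1 (R 4.3.3) fitted 1 model of 6 group means, without a block, giving 6 subset comparisons, 3 DSS comparisons and 3 interactions; a change over all subsets was fitted on the 6 experiment means. The script was tested on simulated data. P-values were adjusted by Benjamini-Hochberg over 14003 genes. Intervals are 95%, and the number of arrays limits the precision.

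Same-numbered arrays come from the same experiment, per the labels. Residuals of same-numbered arrays of different subsets correlated at a median of 0.246 untreated (-0.0251 to 0.319) and 0.184 with DSS (0.114 to 0.311), against -0.124 and -0.134 for other pairs. The residuals of a group sum to 0 over its arrays, so the negative values of other pairs are not an independent reference.

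The members and the 17 gene lists (6 factor families, 11 marker lists; 241 of 265 genes tested) were chosen with earlier results of these data known. Named genes are the members, up to 4 called genes of largest difference per factor list and comparison, up to 3 per marker list, the 3 most alike genes of members spanning over 1 log2 unit, and the sort markers. Promoters come from RefSeq; that of Tcf4 is not reported here. Other filters, scalings, probe set rules, priors, sample subsets and experiment blocks were tried.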

Additional observations from a re-analysis of the deposited data

How the results depend on the processing

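Of 27 called member differences, 22 kept their call under every alternative run, and none changed sign. The other 5 are Bcl6 and Batf3 (untreated CD103+CD11b- minus CD103-CD11b+), Id2 and Zbtb46 (untreated CD103+CD11b+ minus CD103-CD11b+) and Tcf4 (DSS CD103+CD11b- minus CD103+CD11b+), with their values beside the results. Among 103 uncalled differences, 3 were called under an alternative (Irf8, Id2 and Bcl6, also given above), and 27 changed sign in at least 1 alternative. The count of 4 members for untreated CD103+CD11b+ minus CD103-CD11b+ fell to 2 in a fit on only the 2 groups compared, where fewer arrays estimate the spread. Leaving out 1 array at a time gave 5 to 7 members for untreated CD103+CD11b- minus CD103-CD11b+, 3 to 4 for untreated CD103+CD11b+ minus CD103-CD11b+, and 3 to 4 for DSS CD103+CD11b- minus CD103+CD11b+. With the experiment number as a fixed replicate block the counts of members were 7, 5 and 4 untreated and 7, 5 and 1 with DSS, against 7, 5, 4, 6, 4 and 1 without it, and no call was lost; as a random replicate block, with an estimated correlation of 0.0596, they were 7, 5, 4, 7, 4 and 1. DSS and interaction counts of members stayed at 0 throughout. Of 45 named differences of the factor families 30 kept their call under every alternative, as did 94 of 130 of the marker lists, and none of these changed sign while called. The background counts were less stable: 575 genes for untreated CD103+CD11b+ minus CD103-CD11b+ ranged from 150 to 697, 221 for the same comparison with DSS from 97 to 305, and those for the change with DSS, 18, 12 and 14 by subset and 26 over all subsets, from 5 to 21, 0 to 20, 3 to 29 and 7 to 51. After a further quantile normalization 44% of the calls for untreated CD103+CD11b+ minus CD103-CD11b+ were higher, against 57.4% as deposited; the cause was not tested.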

Other observations

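Markers of other cells were also read beside the members. No gene of a list of B and plasma cell markers, of which 12 were tested, was called between subsets, with at most 2 at an unadjusted p below 0.05 in limma's test. Cd4 and Il7r were the called genes of a T, NK and innate lymphoid list in untreated mice: Cd4 was lower in CD103+CD11b- cells than in CD103-CD11b+ cells by -1.65 and Il7r by -1.61. Genes of a list common to conventional dendritic cells went both ways between CD103+CD11b- and CD103-CD11b+ cells. Flt3, which is also on the cDC1 list, was higher in the former by 1.81 untreated and 1.88 with DSS. Adam19 was higher by 1.70 and 1.79. Itgax (CD11c), of the same list, was lower by -0.73 untreated and -0.69 with DSS (limma, adjusted p = 0.0051 and 0.00845). On the cDC1 list, Clec9a was higher with DSS than untreated in CD103-CD11b+ cells (1.40 ± 0.26, adjusted p = 0.0451 by limma), a call that 3 other settings and 5 of the 6 leave-one-out fits lost.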
